A study of Mus musculus with 3 samples.

Results

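The genes described here are 38 markers of macrophages and other immune cells in the mouse heart. The panel was chosen by name, but with earlier results of these data known, so its counts beside those of all genes are a description. They fall into 6 groups: 10 pan-macrophage genes, 11 genes of resident macrophages, 6 of monocytes and their recruitment, 5 pan-leukocyte genes, 4 of class II antigen presentation and 2 lymphocyte genes. Whole hearts of 12-week-old mice were profiled by full-length RNA sequencing, with 1 library for each of 3 genotypes: wild-type, heterozygote and homozygote for the Rbm20 I538T knock-in allele. Rbm20 encodes an RNA-binding splicing regulator of cardiac muscle, and the point mutation was introduced by genome editing of zygotes whose offspring were crossed to C57BL/6J mice. The knock-in sits in the germline, so every cell of a mutant mouse carries it, including its blood and immune cells. With 1 library per genotype there was no replicate, so no test between genotypes was possible, and genotype, animal and library cannot be told apart. All intervals given below cover counting error only.

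Macrophages are the most numerous leukocytes of the healthy heart. Resident macrophages, seeded before birth and kept up largely by local division, clear dying cells and debris and carry scavenger receptors, the mannose receptor and complement genes. Monocytes that enter from the blood carry the chemokine receptor CCR2 and can become macrophages rich in class II molecules, which display peptides to helper T cells. The myeloid transcription factor PU.1 drives many of these genes.

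The level of a gene is its inclusion reads, those lying within its exonic parts, per 1000000 inclusion reads of the library (CPM). The 3 libraries held 149633524, 157178099 and 157990953 inclusion reads in the order wild-type, heterozygote, homozygote. Of the 38 genes, 36 had exonic parts of their own, 539 parts in all, and 35 reached a mean of 1 CPM. Cd3e did not, and Cd74 and Itgam lay wholly in parts shared with overlapping genes and are described separately. A gene was called lower or higher at a ratio of 1.5-fold on the log2(CPM + 1) scale, and counts of called genes are read against the same count over the 12862 genes tested. Rbm20 itself stood at 37.2, 36.004 and 40.6 CPM in the wild-type, heterozygote and homozygote libraries. The table holds no base sequence, so the allele itself was not checked.

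Tissue content differed between the libraries. Globin genes and Alas2 took 8.61% of reads in the wild-type library, 3.20% in the heterozygote and 10.7% in the homozygote. Cardiomyocyte, fibroblast and endothelial markers had median log2 ratios of 0.02, -0.03 and 0.04 between homozygote and wild-type. Between heterozygote and wild-type these medians were 0.15, -0.23 and 0.08. Below 0 lay 6 of 7 fibroblast markers, and 6307 of the 12862 genes tested. Of 19 measured small intestine markers, 14 exceeded both mutant libraries by 3 times or more in the wild-type library, and summed to 36.6, 0.165 and 0.272 CPM in wild-type, heterozygote and homozygote. Smooth muscle and pericyte markers had medians of 0.50 in the homozygote and 0.86 in the heterozygote against wild-type. Lung markers were near 0 in all 3 libraries. The whole intestinal list summed to 136, 114 and 46.3 CPM in wild-type, heterozygote and homozygote. This list includes Lyz1, a near copy of the panel gene Lyz2, with 6670, 8794 and 3117 reads in the same order. How many of these reads came from Lyz2 was not tested. Between homozygote and heterozygote 2 of the list's 7 genes tested were lower and 0 higher, where 3.1% and 1.48% of all genes were. The part of the intestinal reads in the 3 comparisons was not tested.

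The promoters of several of these genes hold the letters that PU.1 and the class II factors recognise, and a few are shown as the sequence context of genes that were lower in the homozygote. RefSeq promoters (GRCm38.p6) were matched for 28 of the 38 genes, giving 33 start sites. Entries for Adgre1, Arhgap9, C1qa, Ccl2, Cd14, Cd74, Csf1r, H2-Ab1, Lyve1 and Tyrobp were not matched. The PU.1 core GAGGAAG, searched on both strands of the 250 bases before the start site, was in 13 of the 33 promoters (39.4%), against 10.6% of all 32851 promoters in the table and 10.9% of those of genes tested here. It was found at F13a1, Itgam and Fcna, in capitals below, and also at C1qc, Cbr2, Ccl8, Fcgr1, Fcgr3, Laptm5, Mrc1, Pf4 and Retnla. Of these genes, C1qc, Ccl8, Fcgr1, Laptm5 and Pf4 were not called lower in the homozygote against wild-type, and Itgam was left out of the calls. The first 3 sequences lie wholly before the annotated gene, on chr13:37050245-37050364 (minus strand), chr7:128062520-128062639 (plus strand) and chr2:25628031-25628174 (minus strand). At Fcna the core occurs 3 times, and a pair of the copies share a base.
F13a1: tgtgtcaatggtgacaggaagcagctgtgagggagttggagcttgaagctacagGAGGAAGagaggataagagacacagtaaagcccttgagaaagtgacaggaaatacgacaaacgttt
Itgam: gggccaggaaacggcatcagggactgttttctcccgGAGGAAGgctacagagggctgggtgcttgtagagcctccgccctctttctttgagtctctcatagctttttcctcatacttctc
Fcna: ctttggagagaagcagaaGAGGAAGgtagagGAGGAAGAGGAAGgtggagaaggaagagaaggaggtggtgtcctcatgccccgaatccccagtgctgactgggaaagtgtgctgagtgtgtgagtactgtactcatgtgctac

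Class II genes share an upstream arrangement that ends in a Y box, bound by NF-Y. Its core GATTGG, on either strand, was in 4 of the 33 promoters (12.1%), against 14.6% of all promoters and 18.3% of those of genes tested here. In H2-Aa it starts 49 bases before the start site, and in H2-Eb1 it starts 60 and 35 bases before it, the copy nearer the start lying on the opposite strand. The other copies were at Cd68 and Cd163. The windows shown are chr17:34287824-34287943 (minus strand) for H2-Aa and chr17:34305747-34305866 (plus strand) for H2-Eb1, with the Y box core in capitals. A match of letters is a description and no measured binding.
H2-Aa: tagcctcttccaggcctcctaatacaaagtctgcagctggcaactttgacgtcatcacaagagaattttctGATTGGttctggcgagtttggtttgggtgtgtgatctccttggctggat
H2-Eb1: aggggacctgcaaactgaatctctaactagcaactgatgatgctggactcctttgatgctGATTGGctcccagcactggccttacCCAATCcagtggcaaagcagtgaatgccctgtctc

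The homozygote library held less RNA of most of these genes than either other library. Against wild-type, 19 of the 35 genes were lower by 1.5-fold and 0 were higher, where 5.41% of all genes tested were lower and 1.27% higher. The log2 ratio was below 0 for 33 of the 35, and for 8499 of the 12862 genes tested. The median was -0.62 beside -0.08 over all genes. Against the heterozygote, 17 were lower and 0 higher, where 3.1% of all genes were lower and 1.48% higher, and the median was -0.56 beside -0.10. The heterozygote stood nearer to wild-type: 3 genes (Retnla, Ccr2 and Cd79a) were lower, where 3.1% of all genes were, and 2 (Adgre1 and Aif1) were higher, where 1.21% were, with a median of -0.18 beside 0.01. At the stricter 2-fold rule, 5 genes were lower in the homozygote than in wild-type (Retnla, Timd4, Fcna, Ccr2 and H2-Ab1) and 0 higher, where 1.3% and 0.319% of all genes were. Against the heterozygote 5 were lower (Adgre1, Aif1, Retnla, Coro1a and Timd4) and 0 higher, where 0.435% and 0.536% were. Between heterozygote and wild-type 0 were lower and 1, Aif1, was higher, where 0.886% and 0.155% were. Together the 36 genes took 0.151%, 0.148% and 0.0891% of reads in wild-type, heterozygote and homozygote. In heart tissue, fewer immune cells and less of these RNAs per cell cannot be told apart.

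**Figure D1:**
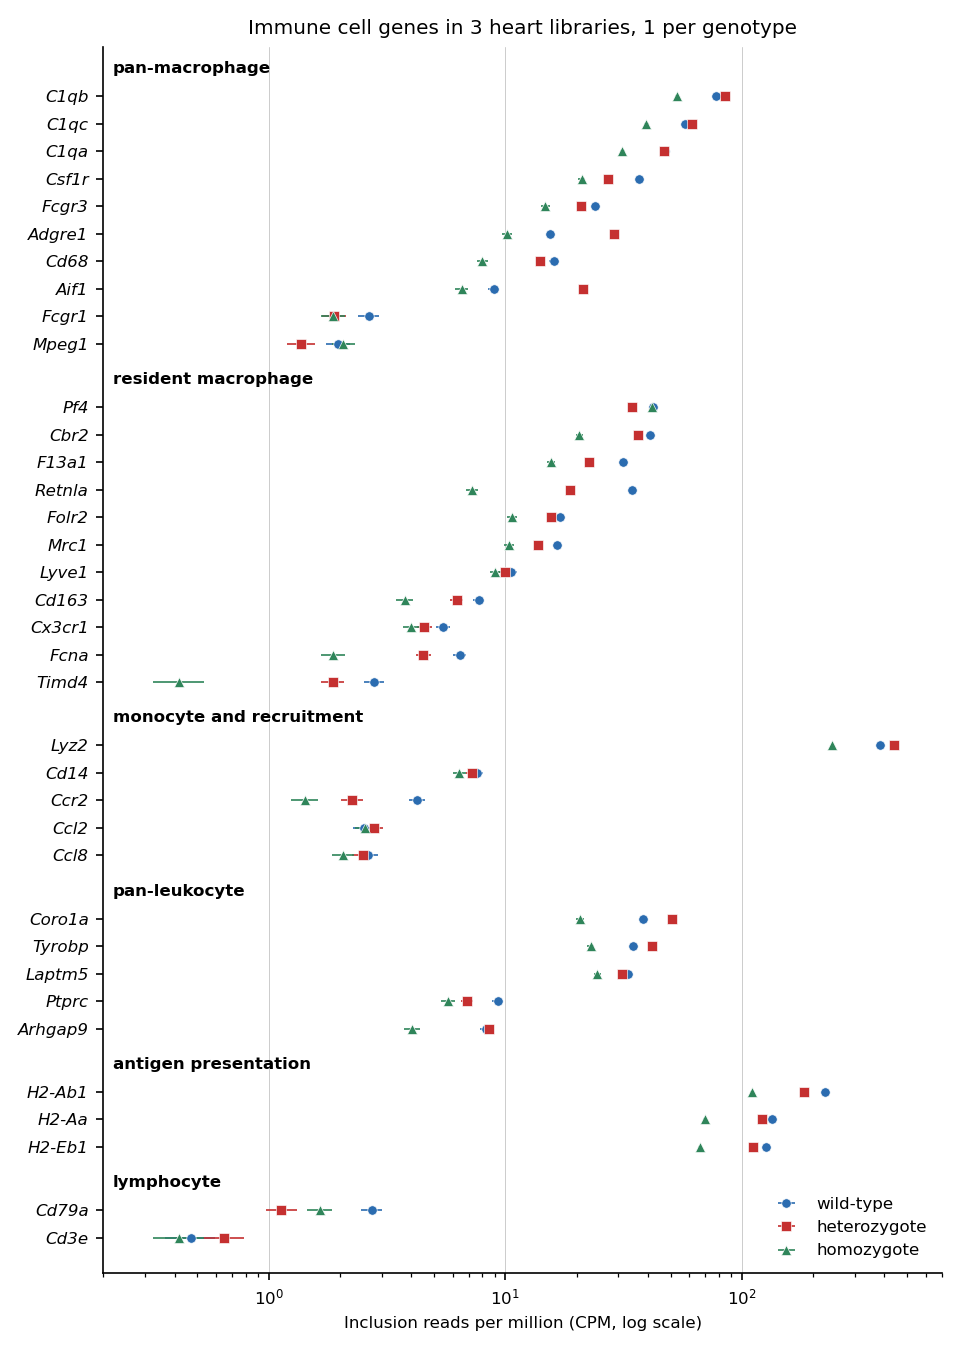
Level of the 36 genes with exonic parts of their own, in CPM on a log axis, with 1 symbol per library and bars for 95% exact Poisson intervals, grouped by role. The homozygote triangle is the lowest of the 3 for 31 of the 35 genes tested, and Timd4 has the widest gap between wild-type and homozygote, from 2.79 to 0.418 CPM.

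In 12 of the 35 genes the homozygote was lower by 1.5-fold than both other libraries, where 1.44% of all genes tested met that rule. These were Arhgap9, Cbr2, Cd163, Cd68, Coro1a, Fcna, H2-Aa, H2-Ab1, H2-Eb1, Lyz2, Retnla and Timd4. The order wild-type over heterozygote over homozygote held for 23 of the 35, where 25.8% of all genes had it. The homozygote was the lowest of the 3 libraries for 31 of the 35, where 51.8% of all genes had it lowest. The other 4 were Ccl2, Cd79a, Mpeg1 and Pf4. The heterozygote was the highest for 9 of the 35, where 42% of all genes had it highest.

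Resident macrophage genes had the lowest homozygote levels relative to wild-type among the macrophage groups. Of the 11 genes, 8 were lower than wild-type, where 5.41% of all genes tested were. The median log2 ratio was -0.87, and all 11 lay below 0, as did 8499 of the 12862 genes tested. The heterozygote lay below wild-type in all 11 as well, where 6307 of the 12862 genes tested did, with a median of -0.27. Of the 11, 1, Retnla, was called, where 3.1% of all genes were lower. Between homozygote and heterozygote 5 were lower, where 3.1% of all genes were, and the median was -0.51.

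Retnla encodes a secreted resistin-like protein of alternatively activated macrophages and lies on chromosome 16 (48842551 to 48844461, GRCm38, plus strand). It stood at 34.3, 18.7 and 7.21 CPM in wild-type, heterozygote and homozygote. The homozygote therefore had 0.210 of the wild-type level (95% interval 0.197 to 0.224) and the heterozygote 0.545 (0.520 to 0.570). It stepped down at each genotype, and all 4 of its parts with a mean of 20 reads or more were lower in the homozygote. Timd4, a phosphatidylserine receptor that marks long-lived resident macrophages, lies on chromosome 11 (46810800 to 46844332). It had 417, 293 and 66 reads in wild-type, heterozygote and homozygote, which are 2.79, 1.86 and 0.418 CPM. Its ratio of homozygote to wild-type, 0.1499 (0.114 to 0.195), was the lowest of the panel, and the fall was present in all 7 parts at that depth. Fcna, a ficolin of the lectin pathway of complement, lies on chromosome 2 (25624666 to 25628030). Its levels were 6.42, 4.504 and 1.87 CPM in that order, so the homozygote had 0.291 (0.255 to 0.332) of the wild-type level, and all 13 parts were lower.

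The scavenger and tissue-maintenance genes of the same group had smaller differences. Cd163, the haemoglobin-haptoglobin receptor, stood at 7.71, 6.23 and 3.75 CPM in wild-type, heterozygote and homozygote. Cbr2, a carbonyl reductase used as a marker of resident macrophages, stood at 41.0, 36.4 and 20.5 CPM. F13a1, the catalytic chain of coagulation factor XIII, stood at 31.3, 22.6 and 15.6 CPM. In these 3 genes the homozygote had 0.487, 0.4998 and 0.499 of the wild-type level. Mrc1, the mannose receptor, stood at 16.5, 13.8 and 10.4 CPM and Folr2, a folate receptor, at 17.1, 15.6 and 10.7 CPM. Both passed 1.5-fold narrowly in the homozygote, with log2 ratios of -0.62 and -0.63. Of the parts averaging 20 reads or more, Mrc1 was below wild-type in 27 of 31 and above it in 4. Folr2 was below wild-type in all 9.

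In 3 genes of this group the homozygote stayed within 1.5-fold of wild-type. Lyve1, a hyaluronan receptor that lymphatic endothelium shares with resident macrophages, stood at 10.6, 9.93 and 9.07 CPM. The other lymphatic markers had a median log2 ratio of -0.11 in the homozygote and -0.58 in the heterozygote against wild-type, and their part in the Lyve1 level was not tested. Cx3cr1, the fractalkine receptor, stood at 5.44, 4.54 and 4.01 CPM. Pf4, a chemokine made by platelets and resident macrophages, stood at 42.1, 34.4 and 41.8 CPM and was level between wild-type and homozygote. Platelet genes were higher in the homozygote library: Ppbp stood at 4.54, 4.86 and 16.6 CPM and Itga2b at 4.03, 4.66 and 11.5 CPM. All 4 platelet genes tested were higher there than in wild-type, where 1.27% of all genes were, at a median log2 ratio of 1.17. The part of platelet RNA in the Pf4 level was not tested.

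Pan-macrophage genes split in the heterozygote. The homozygote was lower than wild-type in 3 of the 10, where 5.41% of all genes tested were. Its median log2 ratio was -0.55, and 9 of 10 lay below 0, as did 8499 of the 12862 genes tested. In the heterozygote 2 were higher than wild-type and 0 lower, where 1.21% and 3.1% of all genes were, with a median of -0.10.

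**Figure D2:**
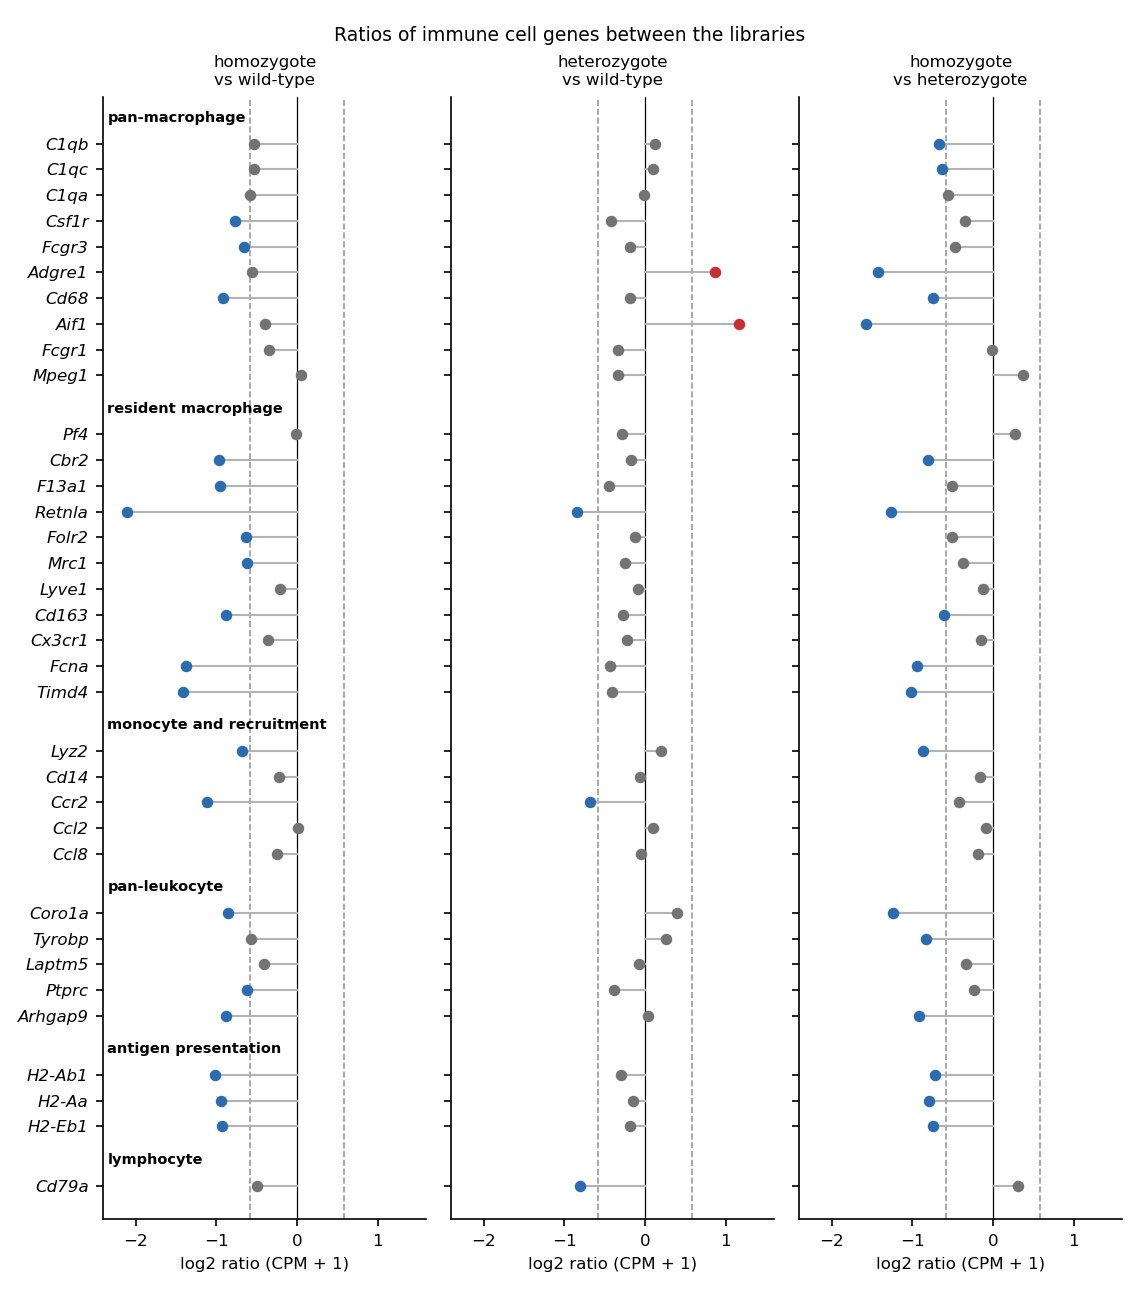
Log2 ratio of CPM + 1 for the 35 genes tested, in the 3 comparisons of libraries, with dashed lines at 1.5-fold, blue points past it downwards, red points past it upwards and grey points within it. Adgre1 and Aif1 are the only red points, both in the heterozygote against wild-type, and Retnla is the leftmost point of the homozygote against wild-type at -2.10.

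Adgre1 encodes an adhesion receptor used as a surface marker of mouse macrophages and lies on chromosome 17 (57358691 to 57483527). It stood at 15.4, 28.9 and 10.2 CPM in wild-type, heterozygote and homozygote. The heterozygote had 1.87 times the wild-type level (1.78 to 1.97), and the homozygote had 0.659 of it (0.618 to 0.703). Aif1, a calcium-binding protein of activated macrophages, lies on chromosome 17 (35170991 to 35176068) and followed the same order. It stood at 8.94, 21.3 and 6.53 CPM, and the heterozygote had 2.39 times the wild-type level (2.24 to 2.54). The higher level ran along the whole of both genes: all 26 parts of Adgre1 with a mean of 20 reads or more and all 8 of Aif1 were above wild-type in the heterozygote. Across all genes tested, 0.358% were higher by 1.5-fold in the heterozygote than in both other libraries, and these 2 were the panel's only members that met that rule.

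The remaining pan-macrophage genes did not share that rise. Csf1r, the receptor for the growth factor that macrophages depend on, stood at 36.7, 27.1 and 21.1 CPM in the same order. It was lower in the heterozygote in 22 of 23 parts. Cd68, a lysosomal glycoprotein, stood at 16.0, 14.01 and 8.01 CPM, so the homozygote had 0.501 of the wild-type level (0.467 to 0.536). Fcgr3, a low-affinity Fc receptor, stood at 23.9, 20.9 and 14.8 CPM. Within the group of 10, the heterozygote lay above wild-type in 4 genes and below it in 6.

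**Figure D3:**
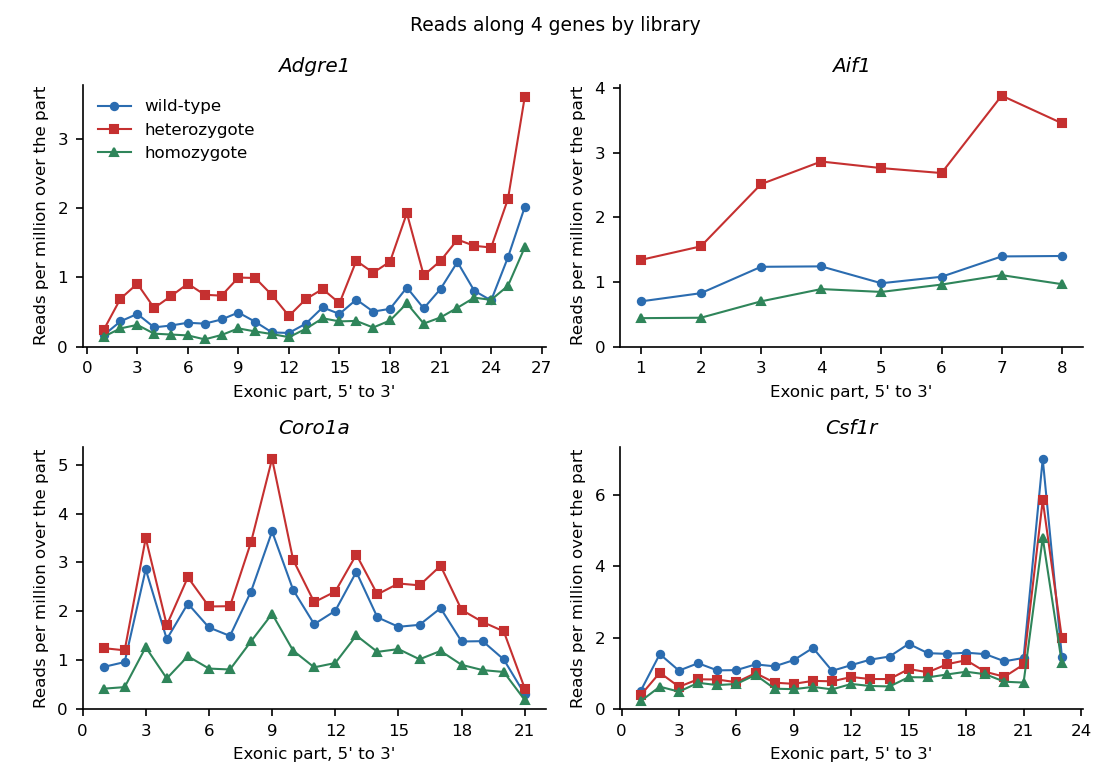
CPM of each exonic part with a mean of at least 20 reads, ordered from the 5' to the 3' end of Adgre1, Aif1, Coro1a and Csf1r, with 1 line per library. The heterozygote squares lie above wild-type at all 26, 8 and 21 parts of Adgre1, Aif1 and Coro1a and below it at 22 of the 23 parts of Csf1r.

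The complement C1q chains, which macrophages make and assemble into 1 protein, moved together. C1qa stood at 47.2, 46.6 and 31.2 CPM in wild-type, heterozygote and homozygote, C1qb at 77.4, 84.8 and 53.0 CPM and C1qc at 57.5, 61.4 and 39.4 CPM. The homozygote had 0.662, 0.685 and 0.686 of the wild-type level in the 3 chains. On the log2(CPM + 1) scale of the calls these were -0.58, -0.54 and -0.53, just inside the 1.5-fold line. The heterozygote stayed between 0.988 and 1.096 of wild-type. Fcgr1, the high-affinity Fc receptor, stood at 2.65, 1.89 and 1.87 CPM, with the mutant libraries alike within their intervals. Mpeg1, a pore-forming protein of phagocytes, stood at 1.97, 1.37 and 2.07 CPM and was lowest in the heterozygote.

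Genes of monocytes and their recruitment were uneven. Ccr2, the receptor that draws monocytes out of the blood, lies on chromosome 9 (124101950 to 124113557) and stood at 4.22, 2.25 and 1.42 CPM. The heterozygote had 0.532 (0.465 to 0.607) and the homozygote 0.336 (0.287 to 0.392) of the wild-type level. Ccr2 and Retnla were the 2 genes of the 35 called lower in both mutant libraries, where 1.66% of all genes tested were. Its ligand gene Ccl2 stood at 2.52, 2.78 and 2.55 CPM and Ccl8, a related chemokine, at 2.63, 2.49 and 2.06 CPM. Cd14, the lipopolysaccharide co-receptor, stood at 7.62, 7.26 and 6.399 CPM. These 3 genes stayed within 1.5-fold in all 3 comparisons.

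Lyz2, the lysozyme of macrophages and neutrophils, was the most abundant gene of the panel with parts of its own, also per length. It stood at 383, 438 and 239 CPM, and the homozygote had 0.625 (0.617 to 0.633) of the wild-type level. Its neighbour Lyz1, the lysozyme of intestinal Paneth cells, is a near copy, and how reads that fit both were placed is not given in the sources used here. Exon 3 is identical over all 79 bases and exon 2 differs at 6 of 165. Exon 2 is printed for both genes, with the differing bases in capitals, because these are the few positions by which the reads there can be told apart. It lies at chr10:117291029-117291193 in Lyz1 and chr10:117280641-117280805 in Lyz2, both on the minus strand.
Lyz1: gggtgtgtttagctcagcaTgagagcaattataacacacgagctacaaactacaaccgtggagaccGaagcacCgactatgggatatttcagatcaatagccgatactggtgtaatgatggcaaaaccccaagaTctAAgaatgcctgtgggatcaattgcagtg
Lyz2: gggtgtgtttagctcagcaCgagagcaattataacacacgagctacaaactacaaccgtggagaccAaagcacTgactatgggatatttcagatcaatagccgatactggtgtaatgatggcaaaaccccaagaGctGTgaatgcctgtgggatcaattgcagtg

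Summing both lysozymes removes the placement between them. The sum was 427, 494 and 259 CPM in wild-type, heterozygote and homozygote, and the homozygote had 0.606 (0.598 to 0.613) of wild-type, close to the value for Lyz2 alone.

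Pan-leukocyte genes were lower in the homozygote, and 3 of 5 were called against wild-type, where 5.41% of all genes tested were lower. Coro1a, an actin-binding coronin of leukocytes, stood at 38.2, 50.4 and 20.7 CPM, highest in the heterozygote at all 21 of its parts averaging 20 reads or more. Tyrobp, the signalling adaptor of many myeloid receptors, stood at 34.5, 41.6 and 23.0 CPM, with the same order. Arhgap9, a GTPase-activating protein of blood cells, stood at 8.27, 8.50 and 4.04 CPM. Ptprc, the leukocyte common antigen, stood at 9.30, 6.91 and 5.73 CPM. It passed 1.5-fold narrowly between homozygote and wild-type, at a log2 ratio of -0.61. At that read depth the homozygote was below wild-type in 20 of 25 Ptprc parts and above it in 5. Against the heterozygote 13 were lower and 12 higher. Laptm5, a lysosomal membrane protein of leukocytes, stood at 32.9, 31.1 and 24.5 CPM. Laptm5 had the smallest difference of the group, with 0.745 (0.714 to 0.777) of the wild-type level in the homozygote.

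The class II chains differed alike. H2-Ab1, H2-Aa and H2-Eb1 encode chains of the peptide-presenting molecules and lie within 1 cluster on chromosome 17 (34257689 to 34316674 from the first to the last). H2-Ab1 stood at 223, 182 and 110 CPM in wild-type, heterozygote and homozygote. H2-Aa stood at 134, 121 and 69.7 CPM, and H2-Eb1 at 127, 111 and 66.3 CPM. The homozygote had 0.493 (0.484 to 0.502), 0.519 (0.507 to 0.531) and 0.524 (0.511 to 0.536) of the wild-type level. All 3 were called against both other libraries, where 1.44% of all genes tested were lower than both. The heterozygote stood at 0.815 to 0.902 of wild-type.

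Cd74, the invariant chain that escorts class II molecules, could only be read in its 18 parts shared with the microRNA gene Mir5107. These parts held 581, 469 and 281 CPM, and the homozygote had 0.484 (0.478 to 0.489) of wild-type, close to the class II chains. Itgam, the alpha chain of the integrin of monocytes and macrophages, lay in 48 parts shared with Gm45700 and Gm49368. These held 4.23, 4.42 and 1.73 CPM, and the homozygote had 0.408 (0.353 to 0.471) of wild-type. Because the shared reads were not assigned to a gene, both are left out of the counts above.

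Lymphocyte genes were scarce. Cd79a, a signalling chain of the B cell receptor, stood at 2.72, 1.13 and 1.65 CPM, and the heterozygote had 0.416 (0.347 to 0.498) of the wild-type level. It is 1 of the 4 genes that were not lowest in the homozygote. Cd3e, a chain of the T cell receptor complex, stood at 0.468, 0.649 and 0.418 CPM, too low for a call.

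Other genes of the same cells, in lists set by cell type, were then counted. Among 21 further macrophage genes tested, 8 were lower and 0 higher in the homozygote against wild-type, where 5.41% and 1.27% of all genes were. All 21 lay below 0, with a median log2 ratio of -0.41. Unc93b1, which carries Toll-like receptors to endosomes, stood at 26.3, 28.5 and 15.6 CPM, and Fcgr2b, the inhibitory Fc receptor, at 26.0, 20.9 and 16.0 CPM. Gas6, a bridging ligand for dying cells and the most abundant of the list, stood at 133, 113 and 106 CPM. Itgb2, the beta chain shared by leukocyte integrins, was the 1 gene of this list called in the heterozygote. It was higher at 8.81 CPM against 5.39 in wild-type, where 1.21% of all genes were higher.

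Of 11 growth and transcription factors of macrophages, 4 were lower in the homozygote against wild-type and 0 higher, where 5.41% and 1.27% of all genes were. Spi1, which encodes PU.1, stood at 8.64, 9.41 and 4.84 CPM. Irf8, an interferon regulatory factor of myeloid cells, stood at 14.5, 10.9 and 7.87 CPM, and Maf, a factor that keeps macrophages mature, at 7.28, 6.06 and 4.22 CPM. The growth factor gene Csf1 stood at 25.0, 19.9 and 21.7 CPM and did not pass 1.5-fold. Cebpb, a factor of inflammatory genes, had a log2 ratio of 0.57 in the homozygote, the highest of the list and within the 1.5-fold line.

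Class I presentation genes lay below 0 in all 8 genes tested between homozygote and wild-type, with a median log2 ratio of -0.48. Over all genes, 8499 of 12862 lay below 0 in that comparison. Of the 8, 2 were called lower, Tap1 and Nlrc5, where 5.41% of all genes were. Tap1, a peptide transporter, stood at 27.3, 25.8 and 16.8 CPM, and Nlrc5, the activator of class I genes, at 5.59, 5.29 and 2.97 CPM. Of 7 class II partner and dendritic cell genes, 2 were lower in that comparison, beside the same 5.41% of all genes. These were H2-DMa at 17.4, 13.7 and 8.70 CPM and H2-DMb1 at 14.2, 12.2 and 8.01 CPM, which load peptides onto class II molecules. Of 10 interferon response genes, 0 were lower and 0 higher in the homozygote against wild-type, where 5.41% and 1.27% of all genes were. Their median was -0.12, beside -0.08 over all genes. Between homozygote and heterozygote 2 were higher and 1 lower, where 1.48% and 3.1% of all genes were, with a median of 0.20. In the heterozygote 2 of the 10 were lower than wild-type, where 3.1% of all genes were. These were Isg15 and Ifi27l2a, the latter at 81.7, 45.9 and 87.5 CPM.

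In B and plasma cell genes the heterozygote lay nearer to the homozygote than to wild-type by the median log2 ratio. Of 7 tested, 4 were lower in the homozygote and 4 in the heterozygote against wild-type, where 5.41% and 3.1% of all genes were. The medians were -0.78 and -0.65. Between homozygote and heterozygote 1 was lower, where 3.1% of all genes were, with a median of -0.14. Of the 7, 4 lay below 0 in that comparison and 3 above, where 8714 and 4144 of the 12862 genes tested did. Igkc, the kappa light chain, stood at 5.36, 2.88 and 2.13 CPM, Fcmr, the receptor for the mu chain, at 1.92, 0.865 and 0.696 CPM and Ms4a1, a B cell surface protein, at 1.85, 0.783 and 0.418 CPM. These 3 were called in both mutant libraries, where 1.66% of all genes were lower in both. Ighm, the mu heavy chain and the most abundant of the list, stood at 19.6, 17.0 and 10.7 CPM. The wild-type library was the highest for these genes, as it was for all 11 resident macrophage genes and the 3 class II chains. It also held 14 of 19 measured intestinal markers at 3 times or more the level of each mutant library. The part of intestinal tissue in the levels of any of these groups was not tested. Monocyte and neutrophil genes did not all lie on one side. Of 9 tested, 3 were lower in the homozygote and 2 in the heterozygote against wild-type, where 5.41% and 3.1% of all genes were. In both, 0 were higher, where 1.27% and 1.21% of all genes were, and the medians were -0.21 and -0.20. Between homozygote and heterozygote 1 was higher and 1 lower, where 1.48% and 3.1% of all genes were, with a median of -0.20. Plac8 was called lower in both mutant libraries at 3.97, 1.08 and 1.13 CPM. S100a9, a calcium-binding protein of neutrophils, was lowest in the heterozygote at 3.45, 0.744 and 3.31 CPM, and its partner S100a8 stood at 2.09, 1.69 and 3.0002 CPM. Cd52, a surface glycoprotein of leukocytes, was called lower in the homozygote against both other libraries at 8.78, 12.6 and 5.24 CPM. Ly6c2, a surface protein of inflammatory monocytes, was above wild-type in both mutant libraries, at 8.93, 13.8 and 11.6 CPM. On the log2(CPM + 1) scale of the calls it stayed within 1.5-fold. Of 4 mast cell genes tested, 0 were called against wild-type in either mutant library. Of all genes, 5.41% were lower and 1.27% higher in the homozygote, and 3.1% and 1.21% in the heterozygote. Between homozygote and heterozygote 1 mast cell gene, Cpa3, was lower and 0 higher, where 3.1% and 1.48% of all genes were.

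**Figure D4:**
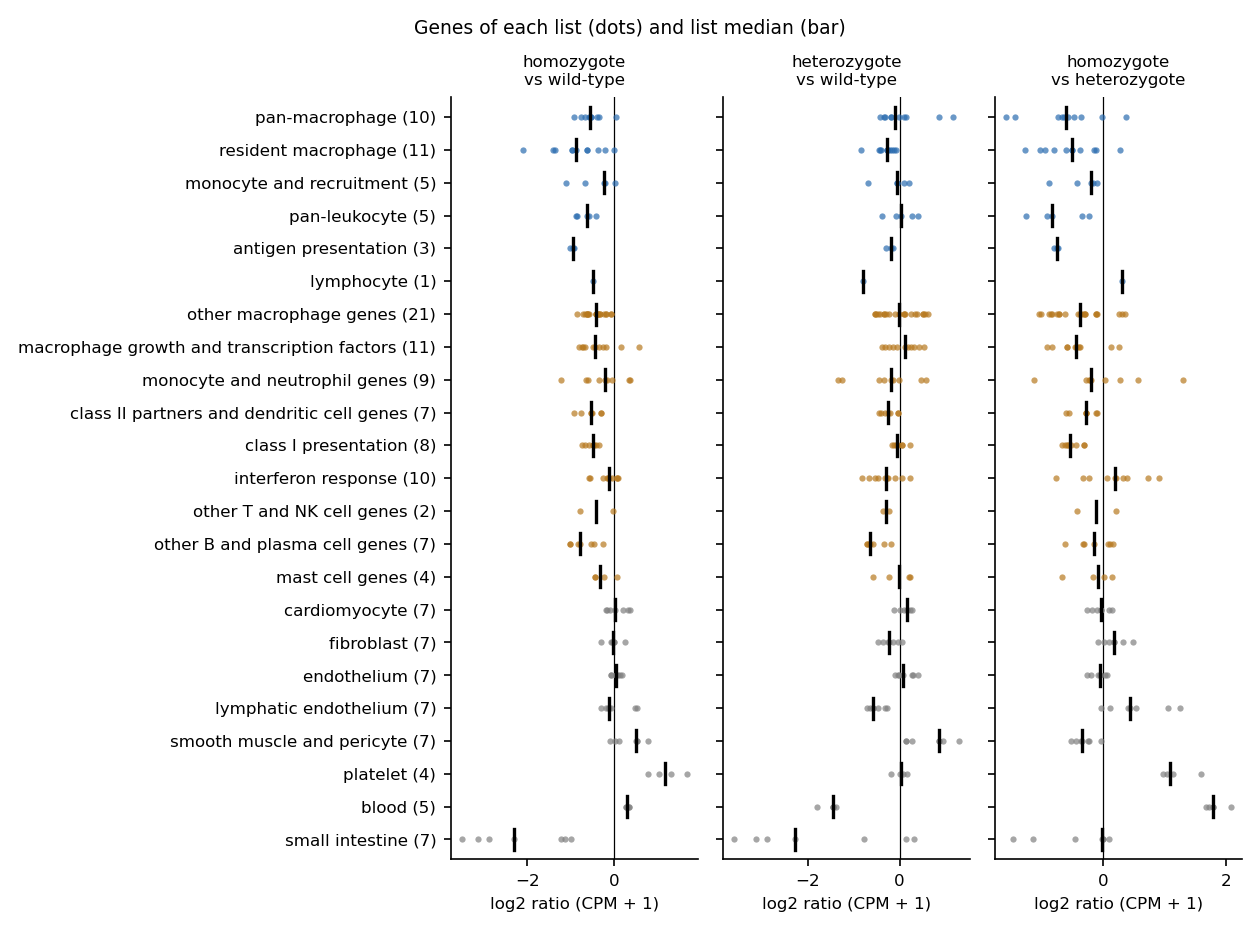
Log2 ratio of CPM + 1 for the genes of each list (dots) and the list's median (bar) in the 3 comparisons, with the number of genes tested in brackets, the panel's groups in blue, other immune lists in brown and other cell types in grey. Immune lists lie left of 0 in the homozygote comparisons apart from lymphocyte and interferon genes against the heterozygote, cardiomyocyte, fibroblast and endothelial medians lie near 0 in the homozygote against wild-type, and the intestinal list stands off in both comparisons with wild-type.

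Splicing of the panel was compared by the percent spliced in (PSI), the share of molecules that hold an exonic part. A gene was counted when a part differed by 20 points and both libraries held 20 reads or more over it. The count was 2 of 35 genes, 5.71%, in each of the 3 comparisons, where 9.12%, 9.33% and 8.83% of all genes had such a part (homozygote against wild-type, heterozygote against wild-type and homozygote against heterozygote). Parts with a 20-point difference were 1.43%, 1.49% and 1.49% of all parts tested. The genes were Cd163 and Lyz2, then Arhgap9 and Ccr2, then Ccr2 and Lyz2.

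Of these, Lyz2 had many reads. Its first exon (chromosome 10, 117282107 to 117282321) had a PSI of 62.7%, 61.8% and 95.4% in wild-type, heterozygote and homozygote, a difference of 32.7 points (30.9 to 34.5) between homozygote and wild-type. The same junction reads, 1142, 1303 and 76, skipped exons 1, 2 and 3 of Lyz2 alike. A read that skips exon 1, the first exon, begins upstream of the annotated Lyz2 gene. The difference therefore cannot be read as exon choice within Lyz2, which is counted above by the rule alone. In Lyz1, which lies upstream on the same strand, skipping reads were 453, 2 and 814 at exons 2 and 3. They were 454, 4 and 814 at exon 4, its last, and 0 in each library at exon 1. Reads that skip exon 4 end downstream of the annotated Lyz1 gene. Which sites these junctions join was not tested. The part that the near copy takes in the PSI of Lyz2 was not tested.

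In the other genes the differences rested on few reads. In Cd163 a part of 974 bases (chromosome 6, 124327988 to 124328961) had a PSI of 21.5%, 27.1% and 44.4% in wild-type, heterozygote and homozygote, a difference of 22.9 points (1.06 to 49.2). In Arhgap9 a part of 115 bases (chromosome 10, 127324345 to 127324459) had a PSI of 50.5%, 71.5% and 63.8%, and the interval of the difference between heterozygote and wild-type ran from -9.94 to 46.1 points. The part of Ccr2 with the larger difference, 590 bases long, rested on 4, 0 and 2 skipping reads.

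The known alternative exons of the panel were measured as well. Exon 7 of the longest Cd74 transcript (Cd74-203), 192 bases, encodes a protease-inhibiting domain and had a PSI of 23.1%, 24.9% and 24.7% in wild-type, heterozygote and homozygote. The homozygote was 1.61 points (0.159 to 3.09) above wild-type. Other Cd74 parts differed more, though all by under 20 points. Exon 6 had a PSI of 93.5%, 100% and 100% on 344, 0 and 0 skipping reads, a difference of 6.49 points (5.84 to 7.18) between homozygote and wild-type. The first 12 bases of exon 9 had a PSI of 85.7%, 92.9% and 93.6%, a difference of 7.90 points (6.65 to 9.11). At both parts the wild-type library was the lowest. These reads are from parts shared with Mir5107. Exons 4, 5 and 6 of Ptprc (Ptprc-207), which define the isoforms of the leukocyte common antigen, were mostly skipped. Exon 4 had a PSI of 14.3%, 3.03% and 0% on 7, 1 and 0 inclusion reads, and 0 reads still allow up to 14.1% in the homozygote. Exon 5 had a PSI of 10.01%, 23.8% and 24.4% on 5, 8 and 9 inclusion reads. The interval of the difference between homozygote and wild-type at exon 5 ran from -4.53 to 36.1 points, so a difference was not detectable at this depth.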

How the data were processed

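The panel and the gene lists were chosen with earlier results of these data known. Libraries were made with the SMART-seq v4 and Nextera XT kits from total heart RNA and sequenced on a NovaSeq 6000. The submitters' processing notes name cutadapt 1.1, Trimmomatic 0.32, TopHat2 2.0.14, Bowtie 1.1.1 and the build GRCm38. The annotation, the counting program and its use of strand are not given in the sources used here. The deposited table holds, for 469293 exonic parts, raw inclusion and exclusion read counts per library and the PSI as a fraction computed by the authors, and recomputation with 129 read positions per junction matched each deposited PSI within 5e-05 points. A read that spans several parts is counted in each, so counting intervals are too narrow. From the deposited counts, inclusion reads were summed per gene over parts outside the 40250 parts shared by overlapping genes, and divided by the library's total (CPM). Genes averaging 1 CPM or more were tested, 1 CPM was added before the log2 ratio, and a gene was called at 1.5-fold. Intervals at 95% are exact Poisson for CPM, exact binomial for ratios and Clopper-Pearson for PSI, combined by Newcombe's method for differences. Along a gene, parts averaging 20 reads or more were compared. Promoter sequences and exons came from RefSeq (GRCm38.p6) and GENCODE M21, and 51760 of 52071 gene identifiers were found in the latter. All 38 genes are named, and of each other list those called in the same direction in both mutant libraries, the most abundant and examples chosen after their values were seen. The 3 columns of PSI without a sample record here and the 2 columns of the authors' own differences were not used. Python 3.11.15, numpy 2.4.6, pandas 2.3.3, scipy 1.17.1, Biopython 1.88 and matplotlib 3.10.9 were used, and the call rule was tested on simulated data. Some results are not reported here.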

Additional observations from a re-analysis of the deposited data

How the results depend on the processing

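No paired analysis was possible because each genotype has 1 library. Replicates could not be left out for the same reason. The count of panel genes lower by 1.5-fold in the homozygote ranged from 14 to 23 against wild-type and from 14 to 19 against the heterozygote when the scaling, the added CPM, the filter or the choice of parts was changed, and no gene became higher. At 2-fold the counts of lower genes were 5 against wild-type, 5 against the heterozygote and 0 between heterozygote and wild-type, where 1 gene was higher. The median log2 ratio between homozygote and wild-type was -0.53 with size factors by the median of ratios and -0.49 with only the most-read part of each gene. Between homozygote and heterozygote it was -0.46 with size factors, -0.48 without the 50 most-read genes in the total, -0.49 with only the most-read part, -0.63 with 0.1 CPM added and -0.45 without globin genes and Alas2, an alternative chosen after seeing the data. That last scaling moved the median of all genes by 0.10, and the panel median minus that of all genes was then -0.45, against -0.46 before. Between heterozygote and wild-type the median was -0.24 without the 50 most-read genes and -0.26 without globin genes and Alas2. Of the genes called in each comparison (19, 5 and 17), 0 changed sign under these alternatives. At 10 points, 5, 7 and 4 panel genes of 35 had a spliced part (homozygote against wild-type, heterozygote against wild-type, homozygote against heterozygote), or 14.3%, 20% and 11.4%, against 21.04%, 21.6% and 21.1% of all genes tested. With 50 reads required, 1 gene had a spliced part in each comparison with wild-type, against 4.57% and 4.496% of all genes. Without read-position correction 1 and 0 genes had one in the homozygote against wild-type and against the heterozygote, against 10.9% and 11.3% of all genes. Cd3e rests on 70, 102 and 66 reads and Timd4 on 417, 293 and 66, in the order wild-type, heterozygote, homozygote.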
